A study of Mus musculus with 6 samples.

Results

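The genes described here drive the cell cycle and copy DNA: cyclins, cyclin-dependent kinases and their inhibitors, the pocket proteins and E2F factors, origin and helicase subunits, replication fork proteins and enzymes of nucleotide synthesis. They were taken by symbol from a list of 59 genes, and 51 of these had a row among the 12366 genes of the deposited table. The other 8 were not analysed here: Ccne2, Ccna2, Ccnb1, Ccnb2, Cdk1, Mki67, Top2a and Cdc25b. Liver RNA was compared between wild type (WT) and Acss2-/- (Acss2-KO) C57BL/6 males, both chow-fed, 22 weeks old and fasted for 48 h, with 3 libraries per genotype. How the Acss2 allele was made, and in which cells the gene is missing, is not given in the labels. The labels number the libraries as replicates and name no animals. P-values therefore rest on the spread among libraries, which may be partly technical.

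Values are CPM, a gene's reads per 1e6 reads of its library. A value below 1 CPM is listed at 0 in the deposited table, so a listed 0 does not mean that no read was seen. Estimated depth was 21.8 to 30.8 M reads per library (M, 1e6 reads). Acss2, which makes acetyl-CoA from acetate, had 74.0, 81.0 and 73.5 CPM in the WT libraries and 1.37, 3.56 and 2.35 CPM in the knockouts, and the libraries matched their labels. The hepatocyte markers Alb, Apoa1, Ttr, Serpina1c, Cps1 and Ass1 were present. Their summed level was 80430 to 102800 CPM in WT and 105200 to 113200 CPM in Acss2-KO. Most of it was Alb, at 62430 to 81250 CPM in WT and 74760 to 81810 CPM in Acss2-KO. Alb and Apoa1 overlapped between the genotypes, and the other markers went apart without overlap. Ttr (mean 4260 CPM in WT, 1260 CPM in Acss2-KO) and Serpina1c (943.5 and 476 CPM) were lower in Acss2-KO. Cps1 (2508 and 11680 CPM) and Ass1 (1197 and 2932 CPM) were higher. In bulk liver RNA, fewer cells of a type and less RNA per cell cannot be told apart.

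Adult hepatocytes are mostly quiescent and re-enter the cycle after injury or partial hepatectomy. D-type cyclins with Cdk4 and Cdk6, then E-type cyclins with Cdk2, phosphorylate the pocket proteins (Rb1, Rbl1, Rbl2) and free E2F factors, which switch on replication genes. Origin recognition complex (ORC) proteins load the MCM helicase on DNA, and the fork then needs the sliding clamp, its loader, single-strand binding proteins, polymerases, a ligase and deoxynucleotides. Inhibitors such as p21 (Cdkn1a) and p27 (Cdkn1b) block the kinases.

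Ccnd1, Ccnd2, E2f3, Tk1, Cdk7 and Rfc2 were lower in Acss2-KO, and Orc2 was higher. These were the 7 genes past the threshold among the 30 with a mean of at least 5 CPM, which were tested with all other such genes (limma on log2(CPM + 1), Benjamini-Hochberg adjustment over 9355 genes, threshold 0.05). The remaining 23 did not pass, with log2 fold changes between -0.75 and 0.43. Of all genes tested 36.5% passed, 13.4% higher and 23.1% lower, so 7 of 30 (23.3%) is not a raised share. The 3413 genes that passed were split into 1252 higher and 2161 lower, and 1690 were higher and 1765 lower after median-of-ratios scaling. The median log2 fold change was -0.01 over the 30 genes and -0.12 over all genes tested. Of the 30, 6 reached the minimum although their mean in one genotype was under 5 CPM (Ccnd2, E2f3, E2f5, Orc2, Tk1 and Tyms). The genotypes were fully separated for 15 of the 30 genes, 3 higher and 12 lower, against 52.9% of all genes tested (20.1% higher and 32.8% lower). By the adjusted p-values in the authors' deposited table, Ccnd1, Ccnd2, E2f3, Tk1 and Orc2 also pass, whereas Cdk7 (0.22) and Rfc2 (0.21) do not. In all, that table calls 10 of the 51 genes (19.6%) and 27.2% of its 12366 genes.

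**Figure D1:**
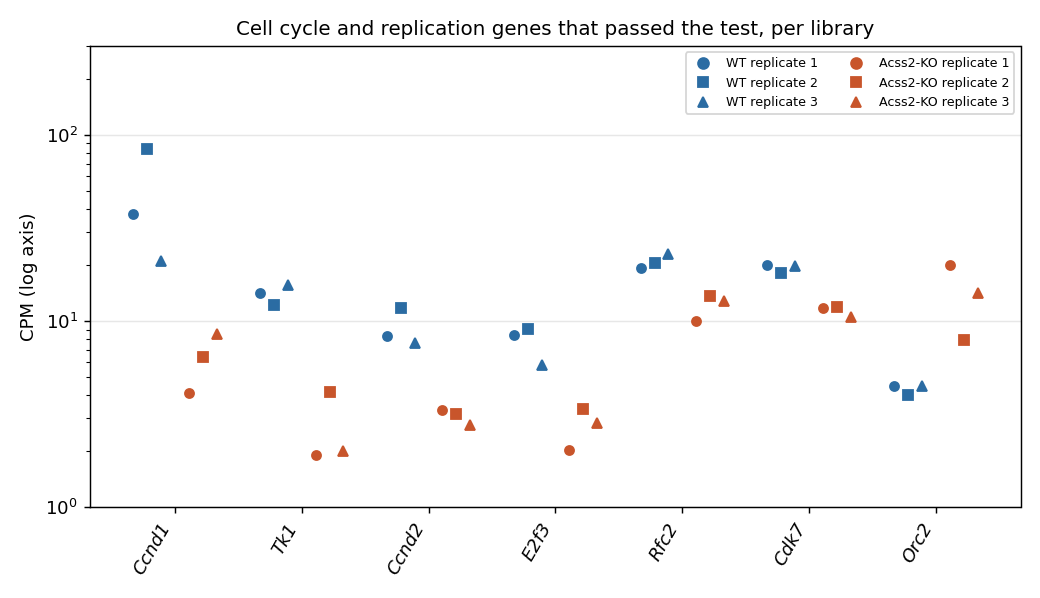
CPM per library (log axis) of the 7 genes that passed the test, in 3 WT (blue) and 3 Acss2-KO (orange) libraries. For each gene the genotypes do not overlap: Ccnd1, Tk1, Ccnd2, E2f3, Rfc2 and Cdk7 lie lower in Acss2-KO and Orc2 lies higher.

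**Figure D2:**
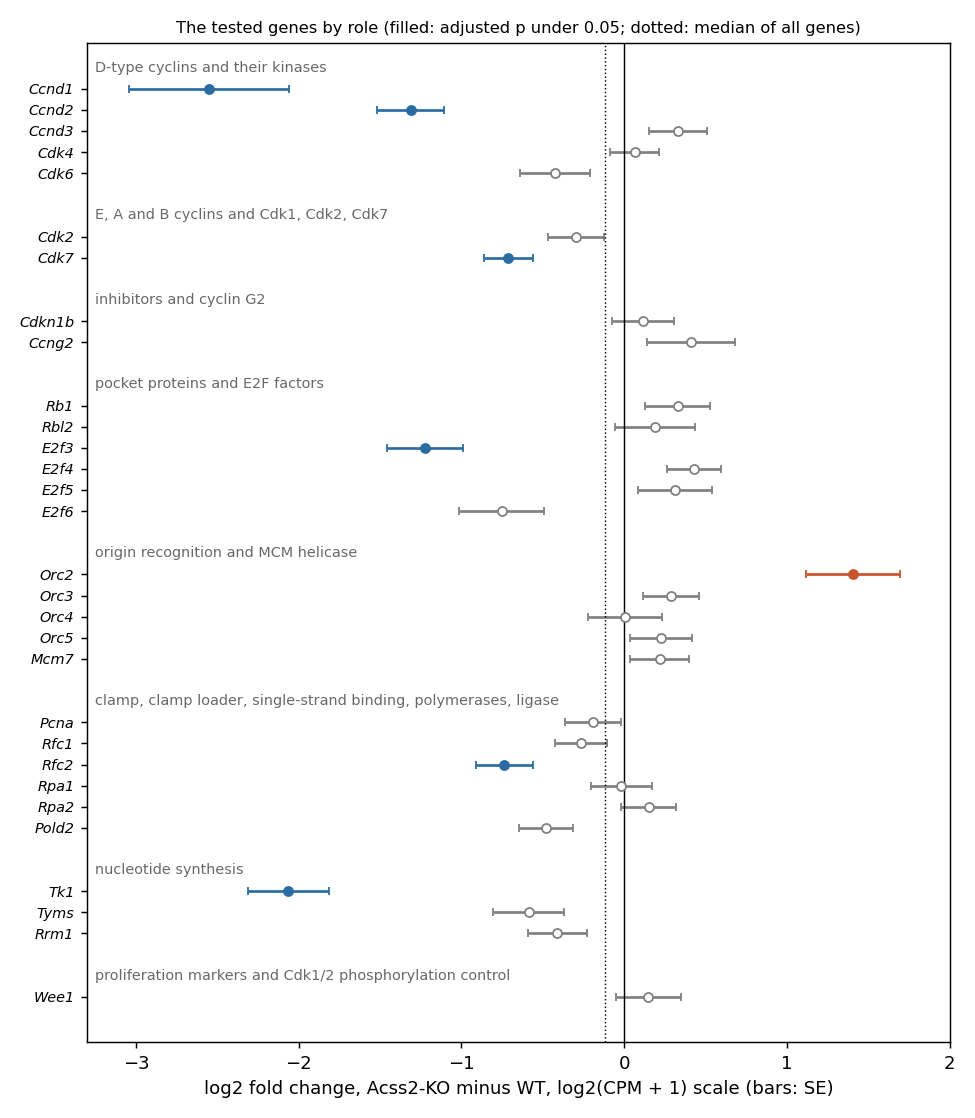
Log2 fold change (Acss2-KO minus WT, log2(CPM + 1) scale) with its SE for the 30 tested genes, grouped by role. Filled points have an adjusted p under 0.05, the dotted line is the median of all tested genes at -0.12, and Ccnd1 (-2.55) and Orc2 (1.40) are the lowest and highest points.

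Of the 5 D-type cyclins and partner kinases, which couple growth signals to the start of the cycle, 2 fell (40%, beside 36.5% of all genes past the threshold and 23.1% lower). Ccnd1, cyclin D1 (ENSMUSG00000070348, chromosome 7, 144929931 to 144939925), was at 37.8, 83.9 and 21.1 CPM in WT and at 4.11, 6.41 and 8.57 CPM in Acss2-KO. The WT values were far apart and the highest, in replicate 2, was several times the lowest, yet each lay above each Acss2-KO value. The means were 47.6 ± 32.5 and 6.37 ± 2.23 CPM (SD, n = 3), 5.86-fold lower in Acss2-KO (log2 fold change -2.55, SE 0.49, limma adjusted p = 0.0088). Without WT replicate 2 the log2 fold change was -2.04 (limma adjusted p = 0.0047). Ccnd1 and its neighbour Oraov1 share 1771 bases, so reads there are uncertain, and Oraov1 was also lower (log2 fold change -0.87, SE 0.17, limma adjusted p = 0.0058).

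Ccnd2, cyclin D2 (ENSMUSG00000000184, chromosome 6, 127125162 to 127152193), was at 8.34, 11.7 and 7.67 CPM in WT and at 3.32, 3.16 and 2.75 CPM in Acss2-KO. It fell 2.48-fold with a narrow spread in Acss2-KO (log2 fold change -1.31, SE 0.20, limma adjusted p = 0.0026). Ccnd3, cyclin D3, did not pass, with 29.2, 28.2 and 22.3 CPM in WT against 37.0, 28.6 and 35.3 CPM in Acss2-KO (limma adjusted p = 0.18). The partner kinases did not pass either. Cdk4 was at 41.5 ± 2.18 and 43.5 ± 2.93 CPM (SD, n = 3), and Cdk6 at 32.7 ± 7.57 and 23.8 ± 3.91 CPM, with overlapping groups for both. Cdk6 passed, as lower, without WT replicate 3.

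Of the later cyclins and kinases, Cdk7, Cdk2 and Ccne1 had a row. Cdk7 is the catalytic subunit of the kinase that activates other cyclin-dependent kinases and also serves in transcription (ENSMUSG00000069089, chromosome 13, 100697027 to 100730942). It was at 19.97, 18.1 and 19.7 CPM in WT and at 11.8, 11.9 and 10.5 CPM in Acss2-KO. Replicates were close in both genotypes, and the level was 1.64-fold lower (log2 fold change -0.71, SE 0.15, limma adjusted p = 0.0084). It shares 214 bases with Ccdc125. The Cdk7 call was lost without Acss2-KO replicate 3 (limma adjusted p = 0.0502). Ccnh, its cyclin partner and no member of the list, also fell, from 13.5, 14.9 and 14.9 CPM to 6.19, 10.2 and 9.99 CPM (log2 fold change -0.68, SE 0.21, limma adjusted p = 0.030). It shares 8690 bases with Rasa1. Mnat1, the assembly factor of the same kinase, was at 5.70, 4.63 and 7.46 CPM in WT and at 4.50, 6.06 and 6.50 CPM in Acss2-KO.

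Cdk2, the S-phase kinase, was at 12.3 ± 1.79 and 9.80 ± 0.745 CPM (SD, n = 3), lower without overlap, and did not pass (limma adjusted p = 0.20). Ccne1, cyclin E1, which activates Cdk2, went the other way at a low level (ENSMUSG00000002068, chromosome 7, 38097984 to 38107534). It was listed at 0 in WT replicates 1 and 3 and at 1.01 CPM in WT replicate 2, and reached 4.72, 1.87 and 2.75 CPM in Acss2-KO. Each Acss2-KO library lay above each WT library. Its mean was under the minimum of 5 CPM. The authors' deposited table gives it a log2 fold change of 2.40 and an adjusted p of 3.4e-07.

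None of the kinase inhibitors on the list rose. Cdkn1b (p27) was at 16.5, 18.0 and 18.6 CPM in WT and 24.6, 15.6 and 18.5 CPM in Acss2-KO (limma adjusted p = 0.66). Ccng2, cyclin G2, which is linked to cell cycle arrest, was at 12.8, 12.4 and 15.3 CPM in WT. In Acss2-KO it was at 22.9, 11.2 and 23.3 CPM, with replicate 2 below the WT range (limma adjusted p = 0.25). It passed when that library was left out. Cdkn1c (p57), Cdkn2c (p18) and Cdkn2d (p19) had means under 5 CPM. Cdkn1c was at 2.19, 3.03 and 2.57 CPM in WT and lower, at 1.51, 1.52 and 1.19 CPM, in Acss2-KO, without overlap. The related inhibitor gene Cdkn1a (p21), which is not on the list, was at 5.86, 10.5 and 6.59 CPM in WT and at 201, 215 and 333 CPM in Acss2-KO.

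The pocket protein genes did not pass: Rb1 was at 7.76 ± 0.475 and 10.2 ± 2.62 CPM and Rbl2 at 42.2 ± 6.22 and 49.7 ± 17.5 CPM (SD, n = 3). The Rb1 libraries were higher in Acss2-KO without overlap, and Rb1 shares 24171 bases with Rcbtb2 and 5400 with Lpar6. Rbl1 was above the floor of 1 CPM in WT replicate 2 alone, at 2.01 CPM. Among the E2F genes, E2f3, an activator, fell (ENSMUSG00000016477, chromosome 13, 29906575 to 29985668). It went from 8.46, 9.06 and 5.82 CPM to 2.03, 3.36 and 2.85 CPM, 2.34-fold lower (log2 fold change -1.22, SE 0.23, limma adjusted p = 0.0052). E2f1, the other activator measured, was at 2.50, 4.14 and 1.84 CPM in WT. In Acss2-KO all 3 libraries list it at 0. The authors' deposited table gives E2f1 a log2 fold change of -2.93 and an adjusted p of 6.7e-09. The activators thus lay lower in each Acss2-KO library than in any WT library.

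The repressor-type E2F genes went in different directions and stayed short of the threshold. E2f4 was at 18.8, 18.6 and 14.8 CPM in WT and higher, at 25.6, 21.9 and 23.8 CPM, in Acss2-KO, without overlap (log2 fold change 0.43, SE 0.17, limma adjusted p = 0.070). It passed after median-of-ratios scaling (limma adjusted p = 0.025) or quantile normalization (0.024). E2f6 was at 13.6, 13.5 and 13.5 CPM in WT, a very narrow spread, and at 4.53, 10.2 and 9.38 CPM in Acss2-KO (log2 fold change -0.75, SE 0.26, limma adjusted p = 0.051). E2f5 overlapped between the genotypes, with means of 4.66 ± 0.624 and 6.13 ± 1.63 CPM (SD, n = 3). Outside the list, the repressor E2f8 fell (log2 fold change -1.39, SE 0.25, limma adjusted p = 0.0043) but shares 3639 bases with Gm2788, which was also lower. Also lower was Tfdp1, an E2F partner (log2 fold change -0.59, SE 0.18, limma adjusted p = 0.035).

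Orc2, a subunit of the complex that marks replication origins, was the single tested gene that rose (ENSMUSG00000026037, chromosome 1, 58462771 to 58505109). It was at 4.50, 4.03 and 4.50 CPM in WT and at 19.97, 7.89 and 14.1 CPM in Acss2-KO. The WT values were nearly equal while the Acss2-KO values were spread, and the lowest of them still exceeded the highest WT value. The level was 2.65-fold higher (log2 fold change 1.40, SE 0.29, limma adjusted p = 0.0071). Orc2 shares 19046 bases with Nif3l1 in the deposited coordinates, which makes reads there uncertain, and Nif3l1 was at 10.8, 14.7 and 14.8 CPM in WT and 6.45, 10.3 and 9.19 CPM in Acss2-KO. The other origin subunits did not pass. Log2 fold changes were 0.29 for Orc3, 0.00 for Orc4 and 0.23 for Orc5, and Orc6 was at 3.41, 4.56 and 4.66 CPM against 6.15, 3.27 and 5.32 CPM.

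The MCM genes encode the helicase that opens DNA at the fork. Mcm7, the one with a mean above 5 CPM, was at 15.2, 13.3 and 10.6 CPM in WT and 16.8, 13.6 and 15.1 CPM in Acss2-KO (limma adjusted p = 0.37). Mcm2, Mcm3, Mcm4, Mcm5 and Mcm6 were highest in WT replicate 2, at 7.26, 9, 9, 4.38 and 7.01 CPM in that order. Their summed level was 19.5, 36.65 and 12.1 CPM in WT and 19.1, 10.5 and 15.5 CPM in the knockouts, and the genotypes overlapped. Mcm5 was at 2.46 and 4.38 CPM in WT replicates 1 and 2 and listed at 0 in the other 4 libraries. The authors' deposited table gives Mcm5 a log2 fold change of -1.94 and an adjusted p of 8.2e-05, and Mcm2, Mcm3, Mcm4 and Mcm6 adjusted p-values of 0.95, 0.27, 0.55 and 0.16.

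E2F factors bind promoters of replication genes, and the letters TTTGGCGC or TTTCGCGC, on either strand, are forms of their site. Promoters from RefSeq (GRCm38.p6, 250 bases before to 50 after the start) matched 47 of the 59 symbols. The letters were found for 9 of these 47 genes (19.1%), against 0.929% of 27025 genes and 1.72% of the 8936 genes that also have a row in the table. The genes were Mcm3, Mcm5, Mcm6, Mcm7, Rbl1, Rfc3, Lig1, Cdc25a and Cdk1. Of the 7 genes that changed, none of the promoters of Cdk7, E2f3, Orc2 and Tk1 held them in this window. Ccnd1, Ccnd2 and Rfc2 were not among the 9 genes either, and whether each had a matched promoter is not stated here. The stretches upstream of the start are shown for 4 genes because the same letters sit beside genes with unlike levels. Capitals mark matches that do not overlap each other. In Mcm5 and Mcm6 a capital run also overlaps a match on the other strand (GCGCCAAA and GCGCGAAA), whose last letters are left in lower case.
Mcm5: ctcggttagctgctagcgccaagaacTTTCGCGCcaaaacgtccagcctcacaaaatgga
Mcm6: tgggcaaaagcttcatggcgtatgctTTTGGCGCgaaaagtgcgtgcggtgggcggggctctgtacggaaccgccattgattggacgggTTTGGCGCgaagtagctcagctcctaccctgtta
Rfc3: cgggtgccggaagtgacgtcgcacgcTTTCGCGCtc
Cdc25a: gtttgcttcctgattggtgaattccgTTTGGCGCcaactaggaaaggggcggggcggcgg

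These lie at chr8:75109330-75109389 on the plus strand (Mcm5), chr1:128359719-128359841 on the minus strand (Mcm6), chr5:151651209-151651244 on the minus strand (Rfc3) and chr9:109875486-109875545 on the plus strand (Cdc25a). Mcm5 was listed at 0 in Acss2-KO and also in WT replicate 3, so its groups overlapped. Rfc3 was at 5.32, 5.06 and 4.96 CPM in WT and 2.91, 2.19 and 3.20 CPM in Acss2-KO. Cdc25a, the phosphatase that activates Cdk2 and Cdk1, was at 4.69, 4.96 and 3.25 CPM in WT and 5.24, 3.97 and 5.10 CPM in Acss2-KO, with overlapping groups. Another motif of cell cycle promoters, TTTGAA, known as CHR, was found for 8 of the 47 genes (17%) against 20.2% of all genes and 13.9% of those with a row. The forkhead letters TGTTTAC were found for 2 (4.26%), Ccnd3 and Mcm7, and 4.05% of all genes. Both were searched on both strands, and a match is a run of letters, not a measured site.

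Of the 13 fork genes, 6 were tested and 1 passed, Rfc2, which was lower (16.67%). Of all genes tested, 36.5% passed and 23.1% were lower. Rfc2, a subunit of the clamp loader (ENSMUSG00000023104, chromosome 5, 134581366 to 134601805), was at 19.2, 20.4 and 22.8 CPM in WT and at 9.99, 13.6 and 12.8 CPM in Acss2-KO. It fell 1.67-fold (log2 fold change -0.74, SE 0.17, limma adjusted p = 0.013). The Rfc2 call was lost without WT replicate 2 and Acss2-KO replicate 1 together (limma adjusted p = 0.087). Pold2, a polymerase delta subunit, was at 9.58, 10.2 and 8.69 CPM in WT and 5.86, 7.26 and 6.45 CPM in Acss2-KO, without overlap (log2 fold change -0.48, SE 0.17, limma adjusted p = 0.0502). Pcna, the sliding clamp, was at 29.1 ± 4.51 and 25.3 ± 2.46 CPM (SD, n = 3). Rpa1 and Rpa2, which coat single-stranded DNA, were at 25.0 ± 5.27 and 24.4 ± 1.53 CPM and at 6.17 ± 0.257 and 6.98 ± 0.798 CPM, and Rfc1 at 27.7 ± 3.53 and 22.8 ± 1.04 CPM.

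In 8 of the 13 fork genes each Acss2-KO library lay below each WT library, and in none above: Rfc1, Rfc2, Rfc3, Rfc4, Rpa3, Pold1, Pold2 and Prim1. Among all genes with a mean under 5 CPM, 36.4% showed this pattern in that direction, and 32.8% of genes above it. Pold1, the catalytic subunit of polymerase delta, was at 5.10, 4.89 and 3.39 CPM in WT and 1.78, 1.40 and 2.11 CPM in Acss2-KO. Prim1, the primase that starts new strands, was at 3.05, 3.41 and 3.61 CPM in WT and 1.29, 2.22 and 1.74 CPM in Acss2-KO. Rpa3 was at 3.18, 2.73 and 5.28 CPM in WT and 1.57, 2.07 and 1.60 CPM in Acss2-KO. Tested without the minimum of 5 CPM, 7 of the 13 were lower (Rfc2, Rfc3, Rfc4, Rpa3, Pold1, Pold2 and Prim1), where 23.5% of all 12366 genes were lower. This count was 1, Pold1, without WT replicate 2 and Acss2-KO replicate 1 together, a comparison of 2 libraries with 2. In that comparison 1454 of all 12366 genes were lower, and 16.74% passed in either direction. The authors' deposited table calls Pold1 among the 13 (log2 fold change -1.19, adjusted p 0.013), and gives 0.059 for Rpa3, 0.10 for Rfc4, 0.13 for Prim1 and 0.14 for Rfc3. Lig1, the ligase that seals the lagging strand, and Pole, the catalytic subunit of polymerase epsilon, overlapped between the genotypes.

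Of the 4 enzymes that supply deoxynucleotides, 3 were tested and 1 passed, Tk1, which was lower (beside 36.5% of all genes past the threshold and 23.1% lower). Tk1, the thymidine kinase whose transcript peaks in S phase (ENSMUSG00000025574, chromosome 11, 117815526 to 117826092), was at 14.1, 12.1 and 15.7 CPM in WT and at 1.92, 4.14 and 2.01 CPM in Acss2-KO. The WT values were close together and none came near the Acss2-KO range. This was 4.18-fold lower in Acss2-KO (log2 fold change -2.06, SE 0.25, limma adjusted p = 0.00093), the smallest p among the 30 genes. Tk1 and Afmid share 169 bases, so reads there are uncertain. Afmid was at 44.6, 35.3 and 33.8 CPM in WT and 6.59, 31.6 and 12.0 CPM in Acss2-KO, and did not pass (log2 fold change -1.39, SE 0.50, limma adjusted p = 0.066).

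Rrm2, the small subunit of ribonucleotide reductase, was higher in each Acss2-KO library (ENSMUSG00000020649, chromosome 12, 24708241 to 24714146). It was at 1.45, 2.66 and 2.40 CPM in WT and at 10.6, 4.06 and 7.67 CPM in Acss2-KO. Its mean over the 6 libraries was under 5 CPM. Without that minimum it passed (log2 fold change 1.35, SE 0.31, limma adjusted p = 0.011). The authors' deposited table gives a log2 fold change of 1.92 and an adjusted p of 1.1e-05. Rrm1, the large subunit of the same enzyme, was at 9.71, 11.5 and 8.46 CPM in WT and 7.41, 6.15 and 7.95 CPM in Acss2-KO, below WT without overlap (log2 fold change -0.41, SE 0.18, limma adjusted p = 0.11). Tyms, which makes thymidylate, was at 6.02, 5.58 and 8.94 CPM in WT and 3.63, 4.82 and 4.03 CPM in Acss2-KO (log2 fold change -0.59, SE 0.22, limma adjusted p = 0.062). Wee1, the kinase that holds back Cdk1 and Cdk2, was at 11.4 ± 2.80 and 12.5 ± 0.264 CPM (SD, n = 3).

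**Figure D3:**
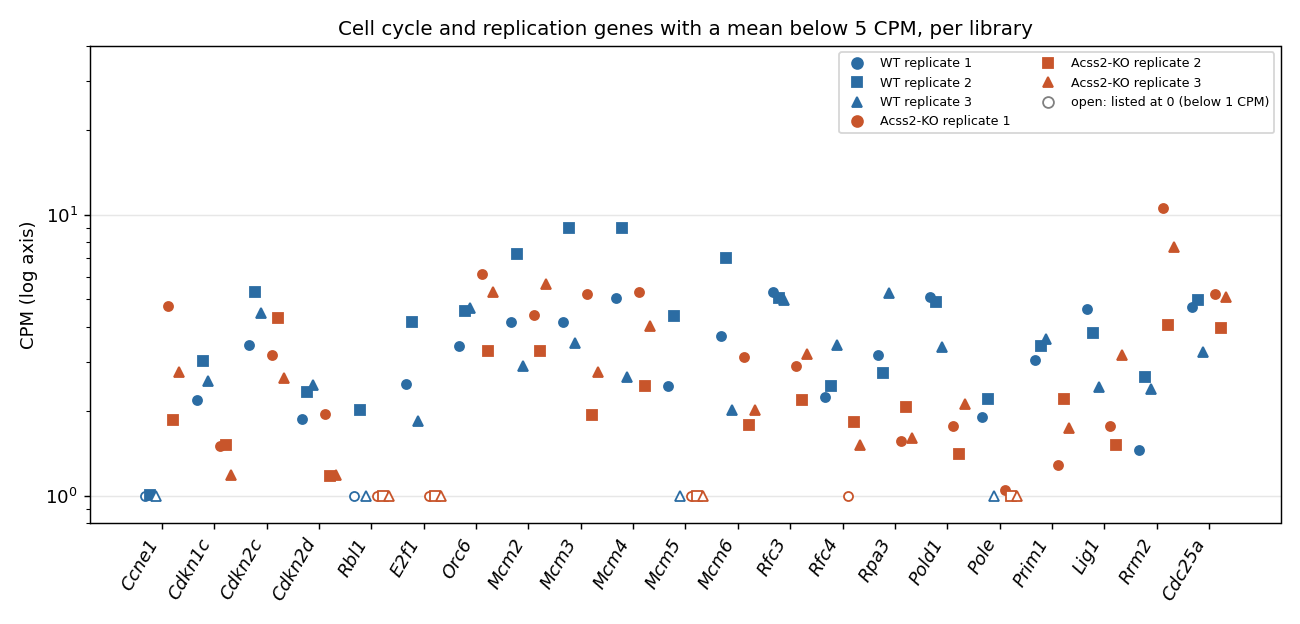
CPM per library (log axis) of the 21 genes with a mean under 5 CPM, in 3 WT (blue) and 3 Acss2-KO (orange) libraries. Open symbols are values listed at 0, drawn at 1 CPM. E2f1 and Mcm5 are at the floor in Acss2-KO, Mcm5 also in WT replicate 3. Ccne1 and Rrm2 lie higher in Acss2-KO, and WT replicate 2 (blue squares) is highest for Mcm2 to Mcm6.

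Of the 51 genes, 21 had a mean under 5 CPM, and 6 of these were listed at 0 in at least 1 library: Ccne1, Rbl1, E2f1, Mcm5, Rfc4 and Pole. In all, 18 of 306 values were at the floor, 6 in WT and 12 in Acss2-KO. Rbl1, E2f1 and Mcm5 were at the floor in the whole Acss2-KO group, and no gene was at the floor in the whole WT group. The genotypes were fully separated for 9 of the 21, against 49.9% of genes under 5 CPM (13.5% higher and 36.4% lower). Tested without the minimum, 17 of the 51 genes passed, against 35.5% of all genes (12% higher and 23.5% lower). Of the 21, 9 passed (42.9%), Ccne1 and Rrm2 higher and Cdkn1c, E2f1, Rfc3, Rfc4, Rpa3, Pold1 and Prim1 lower. Among all genes under 5 CPM 33% passed, 8.04% higher and 24.9% lower. Without WT replicate 2 and Acss2-KO replicate 1 together, 3 of the 21 passed (14.3%): Ccne1, Rrm2 and Pold1. Of all 12366 genes, 16.74% passed in that setting. The authors' deposited table calls 5 of the 21 (Ccne1, Rrm2, E2f1, Mcm5 and Pold1), against 40.7% of genes under 5 CPM (16.4% higher and 24.3% lower).

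Markers of cells other than hepatocytes also differed between the genotypes. The 8 Kupffer cell and macrophage markers (Adgre1, Clec4f, Cd5l, Vsig4, Marco, Csf1r, Cd68 and Timd4) summed to 167, 498 and 228 CPM in WT replicates 1 to 3 and to 64.5, 133 and 112 CPM in Acss2-KO. Of the 7 tested, 3 fell and none rose (beside 23.1% of all genes tested lower and 13.4% higher). WT replicate 2, which had the highest sum, was also the library with the highest Ccnd1, Ccnd2, E2f1, E2f3 and Mcm2 to Mcm6. The other libraries did not follow the same order: the macrophage sum was higher in WT replicate 3 than in replicate 1, and Ccnd1, Ccnd2, E2f1, E2f3 and the Mcm2 to Mcm6 sum were lower there. Not all genes that fell peaked in WT replicate 2. Tk1 and Cdk7 had their lowest WT values in that library (12.1 and 18.1 CPM), and Rfc2 was highest in WT replicate 3 (22.8 CPM). Leukocyte markers summed to 9.18 to 20.4 CPM in WT and 5.81 to 7.13 CPM in Acss2-KO over 4 of 9 genes, with Nkg7 among those listed at 0 throughout Acss2-KO. The 4 erythroid markers measured of 6 all fell (beside 23.1% of all genes tested). Their sum was 151 to 259.5 CPM in WT and 37.3 to 61.2 CPM in Acss2-KO. The sums of endothelial and of stellate cell markers overlapped between the genotypes, at 221.7 to 329.6 and 274.6 to 341.3 CPM and at 219.5 to 343 and 203.5 to 348.7 CPM. Single markers within them changed: the endothelial Lyve1 rose 5.84-fold and Clec4g fell 2.01-fold, and the stellate Lrat fell 3.51-fold (limma adjusted p = 0.0033, 0.0085 and 0.00078). The 2 cholangiocyte markers measured of 5, Sox9 and Spp1, went apart, Sox9 higher and Spp1 lower. The part of these cell types in the results was not tested.

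**Figure D4:**
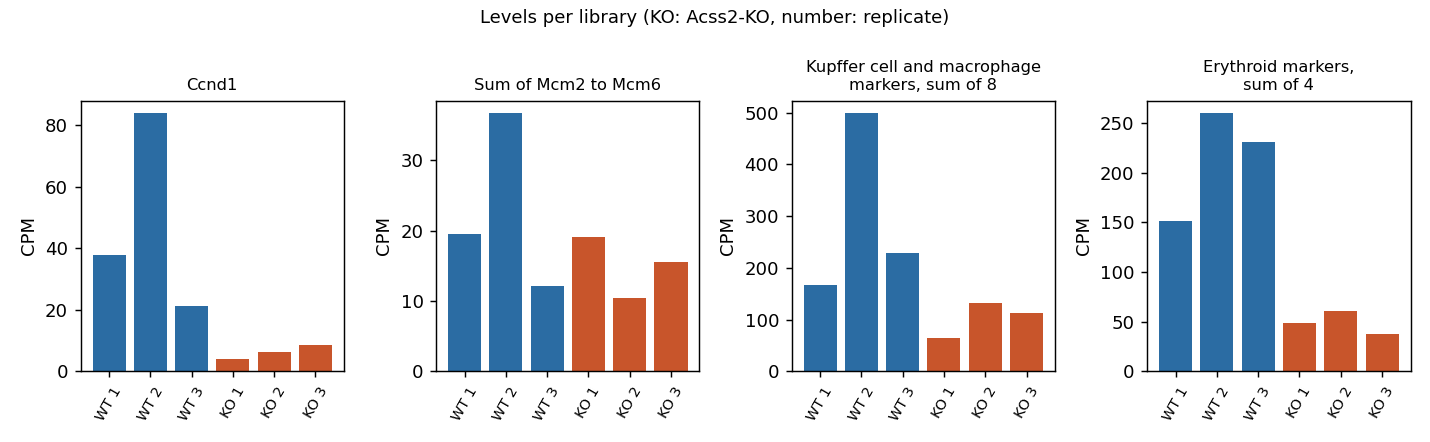
CPM per library of Ccnd1, of the sum of Mcm2 to Mcm6, of the sum of 8 Kupffer cell and macrophage markers and of the sum of 4 erythroid markers (WT blue, Acss2-KO orange). WT replicate 2 has the highest bar in each panel, with 83.9 CPM for Ccnd1 and 498 CPM for the macrophage markers.

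WT replicate 2 held the highest of the 6 values for 16 of the 51 genes (31.4%), against 20.9% of all genes. Acss2-KO replicate 2 held the lowest for 14 (27.5%, against 13.1% of all genes) and the highest for none (against 4.45%). For 6 of the 7 changed genes the log2 fold change kept its direction and its call without WT replicate 2 and Acss2-KO replicate 1 together, Rfc2 being the exception.

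Other cell cycle and replication genes, a list of 129 that holds none of those above, had 90 rows and 68 tested genes. Of these, 8 were higher and 18 lower (38.2%, beside 36.5% of all genes), with a median log2 fold change of -0.15. Counts were 11 higher and 14 lower after median-of-ratios scaling. Of 4 origin and helicase factors tested, 1 was lower and 1 higher (50%, beside 36.5% of all genes). Mcm10, which helps to activate the helicase, fell from 85.0, 64.5 and 92.4 CPM to 5.21, 13.9 and 5.90 CPM (log2 fold change -3.23, SE 0.32, limma adjusted p = 0.00058). Cdt1 rose from 4.72, 5.10 and 3.95 CPM to 10.3, 5.82 and 10.8 CPM (log2 fold change 0.80, SE 0.24, limma adjusted p = 0.031). Of 10 other fork genes tested 5 were lower and none higher, beside 23.1% of all genes tested lower and 13.4% higher. Among the 5 were Rnaseh2c (log2 fold change -1.17, with 423 bases shared with Kat5) and Pola2 (-0.91). In nucleotide metabolism Samhd1, which breaks down deoxynucleotides, was among the genes that fell (log2 fold change -1.14, SE 0.25, limma adjusted p = 0.0087). Of 5 arrest-linked genes tested, 4 passed (80%, beside 36.5% of all genes). Cdkn1a, Gadd45b (log2 fold change 2.24) and Btg2 (1.23) rose and Ccng1 fell (-0.78). Btg1 did not pass (log2 fold change 0.32, SE 0.35, limma adjusted p = 0.50). The Ccng1 call was lost without Acss2-KO replicate 3. Of 44 genes of mitosis listed, 25 had a row and 19 were tested, with 3 lower and none higher (15.8%, beside 23.1% of all genes lower).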

How the data were processed

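Liver RNA of 3 WT and 3 Acss2-KO samples was made into TruSeq libraries, per the labels' protocols. The authors deposited 1 table with log2 CPM per library, rounded to 2 decimals, with values below 1 CPM listed at 0 (as the values themselves show, since unlogged columns total 997100 to 997900). A fold change on the log2 scale, a p-value and an adjusted p-value per gene were also deposited by the authors. Their tool is not given in the sources used. The submitters' processing notes list Bowtie 0.12.2 and mm8 without saying what each was used for. For 11623 genes the deposited start differs from GRCm38.p6 by a median of 8 bp, so coordinates are taken as GRCm38. Whether counting used strand, and how overlapping genes were counted, is not stated there either.

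A listed 0 was set to 1 CPM. Depth was estimated from the spacing of the lowest values, and 5 CPM corresponds to 109 to 154 reads. Genes averaging 5 CPM or more were tested on log2(CPM + 1), which understates changes of low genes, with limma 3.58.1 in R 4.3.3 (robust, with a mean-variance trend, statmod 1.5.0), after a test on simulated data. The design named a count model for counts, and the normalized-value branch was followed. Named were Acss2, the members of the list and, of the pathway genes, those past the threshold with the smallest p, at most 15, and Cdkn1a. Ccnh, Mnat1, Tfdp1, Cdt1 and Btg1, and the overlapping genes, were chosen after their values were seen, as were the features outside this rule that the text singles out. Members, lists and motifs were chosen with earlier results of these data known. Some genes of the lists are not reported here by name. Alternatives were other pseudocounts, scalings and minimums, a stricter threshold, a replicate block and libraries left out. The fit without a minimum and without both libraries together was chosen after seeing the data.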

Additional observations from a re-analysis of the deposited data

How the results depend on the processing

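Of the 7 changed genes, Ccnd1, Ccnd2, E2f3, Tk1 and Orc2 kept their direction and call in each setting in which they were tested. Against 7 genes changed (1 higher, 6 lower), counts were 17 (3 and 14) without a minimum, where 51 genes were tested, and 1 (0 and 1, Ccnd1) with a mean of at least 20 CPM, where 10 were tested. Of all genes, 35.54% passed without a minimum and 33.53% at 20 CPM. There were 2 higher after median-of-ratios scaling or quantile normalization, E2f4 being added, and 3 higher without a minimum and without WT replicate 2 and Acss2-KO replicate 1 together. Leaving out 1 library gave 6 to 11 changed genes, 1 to 2 higher and 5 to 9 lower, with 11 reached without Acss2-KO replicate 2. The share of all tested genes that passed moved too, from 18.35% without Acss2-KO replicate 3 to 42.73% without Acss2-KO replicate 2. The replicate numbers did not pair libraries: deviations from the group means of same-numbered libraries correlated at -0.10, -0.14 and 0.09, and only the libraries numbered 3 correlated best with their own number. With the number as a replicate block, 1 gene was higher and 7 lower, E2f6 being added (limma adjusted p = 0.031).

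The pathway list counted 8 higher and 18 lower. It had 4 to 12 higher and 9 to 20 lower on leaving out 1 library, with 4 higher after dropping WT replicate 2 or either of Acss2-KO replicates 1 and 3, 5 higher without WT replicate 1, and 9 lower without Acss2-KO replicate 3. It had 7 lower at 20 CPM, 4 and 11 without WT replicate 2 and Acss2-KO replicate 1 together (5 higher when the minimum was dropped too), and 4 and 8 at a threshold of 0.01. Over all genes tested, 36.48% passed in the main fit and 18.35% to 42.73% on leaving out 1 library. The share was 33.53% at 20 CPM, 21.3% without both libraries together and 15.99% at a threshold of 0.01. The cause of these shifts in count, and of the differences between the genotypes, was not tested. At 5 CPM a value rests on 109 to 154 reads, and changes below 1 CPM were not detectable here.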

Other observations

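Of 19 other cyclins and kinases tested, most with roles outside the division cycle, 7 passed, 4 higher and 3 lower (36.8%, beside 36.5% of all genes). Among those that did not pass were Cdk8, Cdk10, Cdk12, Cdk13, Ccnc, Ccnk, Ccnt1, Ccnt2 and Ccnl2. Cdk9, the kinase that releases paused RNA polymerase, rose from 28.6, 30.5 and 30.9 CPM to 62.3, 48.8 and 55.7 CPM (log2 fold change 0.86, SE 0.16, limma adjusted p = 0.0048). Ccnl1, a cyclin linked to splicing, which shares 492 bases with Gm37305, rose as well (log2 fold change 1.03, SE 0.27, limma adjusted p = 0.018), while Cdk5 fell (-0.68, SE 0.20, limma adjusted p = 0.027). The DNA damage kinase genes went apart. Atm was at 15.03, 16.5 and 16.0 CPM in WT and 6.06, 6.45 and 6.23 CPM in Acss2-KO, a narrow spread in both (log2 fold change -1.21, SE 0.15, limma adjusted p = 0.0011). Atr was at 18.5, 18.1 and 19.3 CPM in WT and 30.3, 22.0 and 32.4 CPM in Acss2-KO (log2 fold change 0.56, SE 0.18, limma adjusted p = 0.041). Myc, a growth factor-induced transcription factor gene, rose (log2 fold change 2.11, SE 0.58, limma adjusted p = 0.034), with wide spreads of 5.32 to 20.3 CPM in WT and 26.7 to 83.9 CPM in Acss2-KO. Apart from Cdk9 and Atm, these genes were chosen after their values were seen.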
